A study of Mus musculus with 9 samples.

Results

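The axon guidance genes are a set of 69 genes for secreted and membrane-bound cues and their receptors, taken by name from the 25965 genes of the deposited table. They comprise 20 semaphorins, 11 plexins and neuropilins, 14 Eph receptors, 8 ephrins, 3 Slits, 4 Robos, 4 netrins, and 5 genes for Dcc and the Unc5 receptors. The 9 RNA-seq libraries were made from C57BL/6 mouse neural stem cells, which renew themselves and can form neurons, astrocytes and oligodendrocytes. The lines were derived from Smchd1 fl/fl embryos of stage E14.5, whose floxed alleles Cre recombinase can delete. Smchd1 is a gene for a chromatin protein that takes part in gene silencing. There were 3 female and 1 male Smchd1 del/del libraries (lines 1 to 3 and 5) and 3 female and 2 male Smchd1 fl/fl libraries (lines 1 to 3, 5 and 7). Every line was divided after it was established. The del/del culture received a retrovirus with Cre recombinase and a puromycin cassette (MSCV-Cre-puro), puromycin was added after 24 h, and cells were harvested on day 7. The fl/fl culture stayed untransduced, so deletion, retrovirus and puromycin cannot be told apart. The design text of the series calls all lines female and the controls del/fl, and the sample labels were followed here.

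Guidance cues steer growing axons and migrating cells by attraction or repulsion. Semaphorins act through plexins, often with neuropilins as the ligand-binding partner. Slits repel through Robos, and netrins attract through Dcc and repel through Unc5 receptors. Ephrins are held at the cell surface and signal to Eph receptor tyrosine kinases on touching cells, with ephrin-A ligands preferring EphA and ephrin-B ligands preferring EphB receptors. In the developing brain the same genes are also active in the stem cell zones, where they affect the position and division of progenitors.

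Smchd1 itself was at 5.04 to 5.36 in del/del and at 6.16 to 6.81 in fl/fl libraries in log2 RPM (reads per M reads, where M is 1000000), and it fell by 1.19 on the log2 scale (limma adjusted p = 0.00751). Each library held 12.9 M to 44.9 M reads in listed genes, and the shallowest was female fl/fl 2. All 17 neural stem cell markers were kept by the filter on low values and none of them changed by limma, with no marker at an unadjusted p under 0.05 and 0 called by voom. Summed over the list, these markers reached 904 to 1223 RPM in del/del and 854 to 1686 RPM in fl/fl libraries, where female fl/fl 2 held the 1686 RPM and the others reached 961 RPM at most.

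Over both sexes, Epha7 and Efna5 rose in del/del cultures and no guidance gene fell. Their RefSeq promoter windows (GRCm38.p6, 250 bases before to 50 bases after the start, read on the gene's strand) are shown because these are the called genes, and capitals mark each CG dinucleotide, the site of DNA methylation. The Epha7 window lies at chr4:28812881-28813180 on the plus strand and the Efna5 window at chr17:62881268-62881567 on the minus strand.
Epha7: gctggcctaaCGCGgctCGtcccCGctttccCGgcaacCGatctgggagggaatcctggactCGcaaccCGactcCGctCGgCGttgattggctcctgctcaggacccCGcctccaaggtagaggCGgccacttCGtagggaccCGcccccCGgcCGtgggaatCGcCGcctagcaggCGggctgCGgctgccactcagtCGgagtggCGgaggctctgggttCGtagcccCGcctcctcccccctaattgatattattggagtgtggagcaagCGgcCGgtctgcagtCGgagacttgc
Efna5: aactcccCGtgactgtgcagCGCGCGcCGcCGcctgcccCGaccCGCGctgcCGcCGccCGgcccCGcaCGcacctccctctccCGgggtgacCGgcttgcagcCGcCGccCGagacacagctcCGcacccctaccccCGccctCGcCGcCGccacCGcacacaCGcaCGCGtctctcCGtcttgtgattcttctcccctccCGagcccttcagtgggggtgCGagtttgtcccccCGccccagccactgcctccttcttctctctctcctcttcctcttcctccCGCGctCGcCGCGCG
The Epha7 window holds 28 CG dinucleotides at a GC content of 67.0%, and the Efna5 window holds 38 at 73.3%. Over 32851 windows of the same length the median was 7, and 14.2% of windows held at least as many as Epha7 and 4.95% at least as many as Efna5. CG-rich starts were common in the set: the 59 members with a window had a median of 21. The interferon-response-like motif GAAANNGAAA, searched on both strands, was in neither of the printed windows. It was in the windows of Plxnc1 and Sema6b, 3.39% of the members' windows, and in 3.44% of all windows.

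Most of the guidance genes were transcribed in these cells, with large differences within each family. A log2 level of at least 0 (1 RPM) in at least 3 libraries kept 57 of the 69, and 14044 of all 25965 genes. The genes left out were Epha6, Epha8, Epha10, Efna1, Slit3, Robo4, Ntn5, Sema3b, Sema3f, Sema3g, Sema4a and Sema4f. They held 0 to 108 reads in any library. To set genes side by side, reads were divided by the summed exon length of the gene within its listed span (RPM per kb of exons), and the rows count introns too.

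The highest level per length belonged to Plxnb2, a plexin that binds class 4 semaphorins, at 17.0 ± 3.02 RPM per kb in del/del (SD, n = 4) and 16.9 ± 3.26 in fl/fl libraries (SD, n = 5). Ntn1, Sema6d and Ntn4 followed close together. The netrin Ntn1 had 11.2 ± 1.43 RPM per kb in del/del and 10.5 ± 1.26 in fl/fl, and the netrin Ntn4 had 10.5 ± 2.27 in del/del and 9.89 ± 1.50 in fl/fl. Sema6d, a transmembrane semaphorin that led its family, had 9.92 ± 1.34 RPM per kb in del/del and 10.5 ± 2.07 in fl/fl. For these 4 genes the difference between the genotypes was smaller than the spread between libraries, and Ntn1, Sema6d and Ntn4 did not differ from each other beyond that spread. Efnb2, an ephrin-B ligand, led the ephrins at 8.42 ± 0.925 in del/del and 7.29 ± 1.21 in fl/fl, and Epha2 led the Eph receptors at 6.57 ± 0.604 in del/del and 5.24 ± 1.19 in fl/fl. The order within a family depends on the length used: per length of the whole span Sema6d ranked 7 of the 20 semaphorins, Ntn1 ranked 3 of 4 and Robo1 ranked 2 of 4.

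Slit1, Robo1 and Unc5b headed their families at lower levels. Slit1, a secreted repellent, was at 3.42 ± 0.481 RPM per kb in del/del and 1.74 ± 0.619 in fl/fl libraries. Robo1, a Slit receptor, was at 2.59 ± 0.232 in del/del and 2.14 ± 0.147 in fl/fl, and Unc5b, a netrin receptor, was at 3.81 ± 0.169 in del/del and 3.85 ± 0.605 in fl/fl. Slit2 stood far below Slit1, at 0.108 ± 0.0254 RPM per kb in del/del and 0.0913 ± 0.0200 in fl/fl, and Slit3 was lower still, with 22 reads or fewer in any library.

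**Figure D1:**
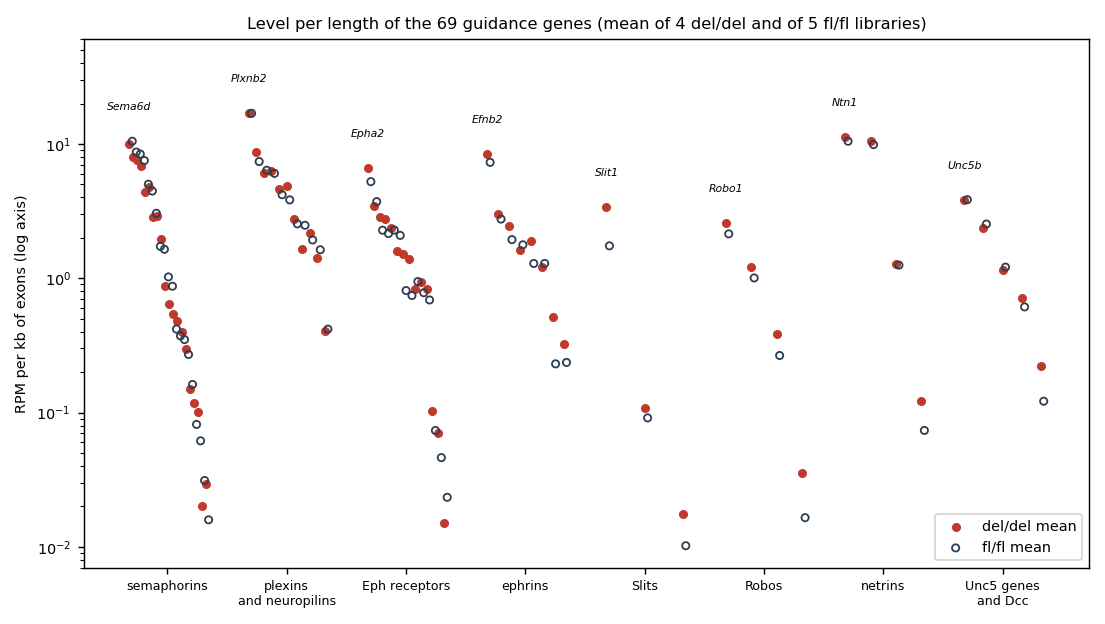
Level of each of the 69 guidance genes in RPM per kb of exons (log axis), by family. Filled red points are means of 4 del/del libraries, open points means of 5 fl/fl libraries, and the top member of each family is named. Plxnb2 is highest at 17.0 in del/del and 16.9 in fl/fl, and Slit1 shows a wide gap between its points, 3.42 in del/del and 1.74 in fl/fl.

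Of the 57 kept guidance genes, 2 rose (3.51%) and 0 fell by limma at an adjusted p under 0.05, where 1.45% of all 14044 kept genes rose and 0.0997% fell. At an unadjusted p under 0.05, 10 members were higher and 2 (Sema3d and Ephb3) lower in del/del, where 8.06% of all genes were higher and 1.78% lower. The voom test on recovered reads also called 2 rises and 0 falls, where 1.65% of all genes rose and 0.199% fell. The median log2 fold change over the kept members was 0.10, against -0.0041 over all genes, and 37 of 57 members (64.9%) were above 0, against 48.9% of all genes. Both comparisons with all genes moved when 1 library was left out. Without female fl/fl 2 the medians were 0.12 over the members and 0.0832 over all genes, and 36 of 57 members (63.2%) were above 0, against 73.7% of all genes. Without female del/del 1 the medians were 0.0112 over the members and -0.0428 over all genes, and 29 of 57 members (50.9%) were above 0, against 41.4% of all genes. Del/del libraries lay above all fl/fl libraries for 8 members (14.0%), against 5.53% of all genes, and below them for 1, against 0.99% of all genes.

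With the line as a block, which compares each del/del culture with the fl/fl culture of its own line, 6 members rose (10.5%) and 0 fell, where 3.77% of all genes rose and 0.228% fell. The 6 were Epha7, Efna5, Slit1, Ephb6, Sema5a and Efna3. With the block and each library centred on its median, 3 of the 6 passed: Epha7, Slit1 and Sema5a. The share of all genes that passed in that setting was not counted. In all, 22 members (38.6%) were higher in del/del in 4 of 4 lines, against 17.9% of all genes. Another 6 (10.5%) were lower in 4 of 4 lines, against 4.05% of all genes, so both shares were above those of all genes. The median difference was 0.32, 0.17 and 0.05 over the members in female lines 1 to 3 and 0.076 in male line 5. Over all genes it was 0.22, -0.25, 0.10 and 0.081. The members thus stood furthest above all genes in line 2, which holds female fl/fl 2, and not above them in lines 3 and 5. How far the shares without overlap and in 4 of 4 lines rest on line 2 was not tested. The kept members have long spans, with a median of 106.5 kb against 23.1 kb for all kept genes.

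**Figure D2:**
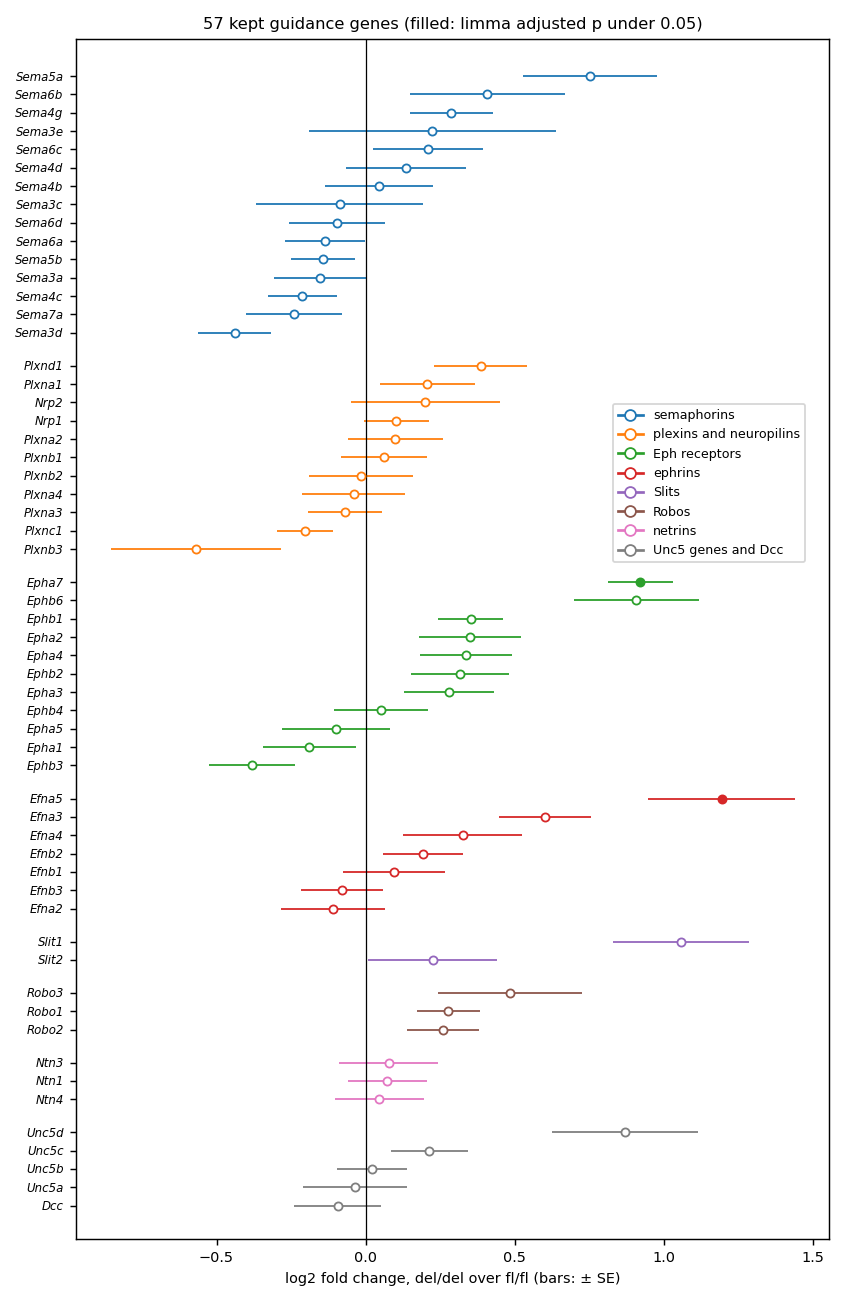
Log2 fold change of del/del over fl/fl for the 57 kept guidance genes, by family, with bars of ± SE. Filled points passed limma's adjusted p of 0.05: Epha7 at 0.92 and Efna5 at 1.19. Slit1, Ephb6, Unc5d and Sema5a lie at 0.75 to 1.06 without passing, and the netrins lie near 0.

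The ephrins and their receptors held both called rises. Of the 7 kept ephrins 1 rose, and the median log2 fold change was 0.19, with 0.46 over the 4 kept ephrin-A genes and 0.09 over the 3 ephrin-B genes. Of the 11 kept Eph receptors 1 rose, 8 were above 0, and the median was 0.32. EphA and EphB receptors had similar medians, 0.31 and 0.32. Within each line the median difference of the Eph receptors was 0.23, 0.39 and 0.34 in female lines 1 to 3 and 0.37 in male line 5, where the median over all genes was 0.22, -0.25, 0.10 and 0.08 in the same lines. The Eph receptors were thus above the median of all genes in each of the 4 lines, though by little in line 1. The difference of the ephrins was 0.43, 0.34 and -0.13 in female lines 1 to 3 and 0.12 in male line 5.

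Epha7 encodes a receptor of ephrin-A ligands that takes part in sorting axons and in closure of the neural tube in mice. Its row spans chromosome 4 from 28813131 to 28967499 (mm10, plus strand, ENSMUST00000080934). The levels were 3.74, 3.76 and 3.62 log2 RPM in female del/del 1 to 3 and 3.99 in male del/del 5, against 3.08, 2.81 and 2.73 in female fl/fl 1 to 3, 2.93 in male fl/fl 5 and 2.81 in male fl/fl 7. The groups did not overlap: the lowest del/del library, female 3, lay above the highest fl/fl library, female 1. Epha7 rose 1.89-fold, by 0.92 on the log2 scale with an SE of 0.110, and was higher in 4 of 4 lines (limma adjusted p = 0.00751). The values rest on 987 to 1619 reads per del/del library and 169 to 985 reads per fl/fl library. Without male del/del 5 it missed the threshold (log2 fold change 0.83, adjusted p = 0.0914), and it passed in the other 19 alternatives. The deleted gene Smchd1 likewise passed in 8 of 9 fits with 1 library left out. The row overlaps that of Gm11915 and shares the reads of that stretch.

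Efna5 encodes ephrin-A5, a ligand of EphA receptors tethered to the membrane by a lipid anchor. Its row spans chromosome 17 from 62604184 to 62881317 (mm10, minus strand, ENSMUST00000076840). The levels were 1.31, 1.05 and 0.72 log2 RPM in female del/del 1 to 3 and 1.12 in male del/del 5, against -0.15, -0.27 and -0.01 in female fl/fl 1 to 3, 0.31 in male fl/fl 5 and -0.55 in male fl/fl 7. The groups did not overlap, since the lowest del/del library was at 0.72 and the highest fl/fl library at 0.31. Efna5 rose 2.29-fold, by 1.19 on the log2 scale with an SE of 0.247, and was higher in 4 of 4 lines (limma adjusted p = 0.0483). It is a low gene, with 163 to 222 reads per del/del library and 20 to 130 reads per fl/fl library, and on the log2(RPM + 1) scale the difference was 0.69. The call lies at the threshold: it passed in 6 of 19 alternatives, the line block among them (adjusted p = 0.0233), and was lost with median centring (adjusted p = 0.0856), quantile normalization (adjusted p = 0.146) and without any 1 library other than male fl/fl 7 (adjusted p = 0.0548 to 0.332).

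Ephb6 encodes an Eph receptor without kinase activity (chromosome 6, 41605482 to 41620509, plus strand). The levels were 2.91, 2.33 and 2.40 log2 RPM in female del/del 1 to 3 and 2.35 in male del/del 5, against 2.04, 1.05 and 1.69 in female fl/fl 1 to 3, 1.52 in male fl/fl 5 and 1.60 in male fl/fl 7. Line 1 was the highest in both genotypes, and the groups did not overlap. The difference was 0.91 on the log2 scale (SE 0.210, limma adjusted p = 0.0746), and with the line as a block it was 0.93 and passed (adjusted p = 0.00969). With the block and median centring it missed the threshold (adjusted p = 0.0609).

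Efna3 encodes another ephrin-A ligand (chromosome 3, 89313899 to 89322965, minus strand), whose row overlaps that of Gm15998. Its del/del libraries lay close together, at 2.17, 2.24 and 2.21 log2 RPM in females 1 to 3 and 2.22 in male 5. Its fl/fl libraries were at 1.78, 1.22 and 1.66 in females 1 to 3, 1.54 in male 5 and 1.95 in male 7. All fl/fl libraries were lower than all del/del libraries, and female fl/fl 2, the shallowest library, was the lowest. The difference was 0.60 on the log2 scale (SE 0.155, limma adjusted p = 0.114), and it passed with the line as a block (0.66, adjusted p = 0.0399) and did not with median centring added to the block (adjusted p = 0.181).

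The other Eph receptors and ephrins did not pass. Ephb1 was the third Eph receptor whose groups did not overlap, with a log2 fold change of 0.35 (limma adjusted p = 0.205). Epha2 had a log2 fold change of 0.35 (SE 0.170, limma adjusted p = 0.578) and Efnb2 one of 0.19 (SE 0.134, limma adjusted p = 0.883), and for both the genotypes overlapped. Ephb3 went the other way at -0.38 (SE 0.145, limma adjusted p = 0.363), lower in del/del in 4 of 4 lines. Ephb1 and Ephb3 were named after their values were seen.

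**Figure D3:**
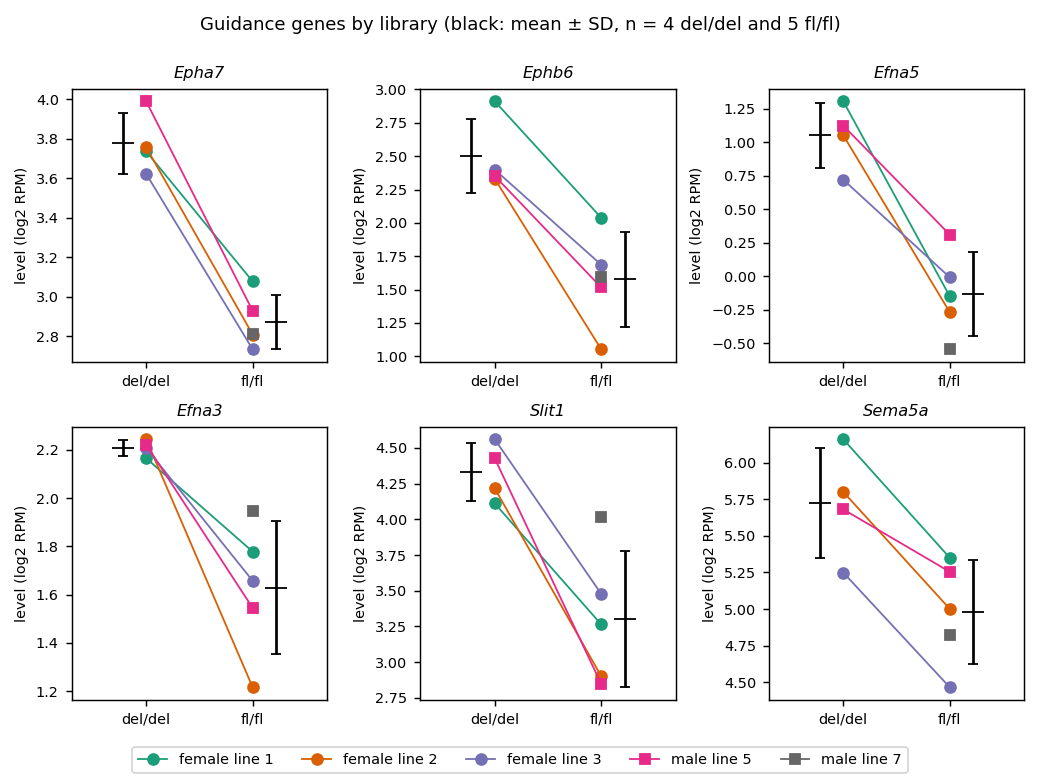
Level in log2 RPM of the 6 guidance genes that rose with the line as a block, del/del on the left and fl/fl on the right of each panel. Lines join the cultures of 1 line, circles are female and squares male, and black bars are mean ± SD of 4 del/del and 5 fl/fl libraries. Each joined line has its del/del value above its fl/fl value in all 6 panels, and Sema5a alone has overlapping groups.

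Among the Slits, Slit1 was higher in del/del in 4 of 4 lines. Its row covers chromosome 19 from 41600257 to 41743665 (mm10, minus strand). The levels were 4.11, 4.22 and 4.56 log2 RPM in female del/del 1 to 3 and 4.43 in male del/del 5, against 3.26, 2.90 and 3.48 in female fl/fl 1 to 3, 2.85 in male fl/fl 5 and 4.02 in male fl/fl 7. The groups did not overlap, although male fl/fl 7, at 4.02, came close to female del/del 1, at 4.11. The difference was 1.06 on the log2 scale (SE 0.227), or 2.08-fold, which just missed the threshold (limma adjusted p = 0.0575). The fit blocked by line leaves male fl/fl 7 without a partner, and there Slit1 rose (log2 fold change 1.21, SE 0.135, adjusted p = 0.00403), also with median centring added (adjusted p = 0.0183). The 4 line differences were 0.85, 1.32 and 1.08 in female lines 1 to 3 and 1.58 in male line 5.

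Slit2 had a log2 fold change of 0.23 (SE 0.216, limma adjusted p = 0.997), with 224 to 259 reads per del/del library and 43 to 314 reads per fl/fl library. The Robos, receptors of the Slits, did not pass. Each of the 3 kept genes was higher in del/del in 4 of 4 lines, as were 17.9% of all genes. Their median difference was 0.56, 0.165 and 0.23 in female lines 1 to 3 and 0.076 in male line 5. Over all genes it was 0.22, -0.25, 0.10 and 0.081 in the same lines. Robo1 was at 5.38 ± 0.131 log2 RPM in del/del (SD, n = 4) and 5.11 ± 0.0954 in fl/fl libraries (SD, n = 5), with a log2 fold change of 0.28 (limma adjusted p = 0.365). Robo2 was at 4.32 ± 0.227 in del/del and 4.05 ± 0.0948 in fl/fl, with a log2 fold change of 0.26 (limma adjusted p = 0.539) and no overlap between groups. The gap for Robo2 was narrow, since the lowest del/del library was at 4.17 and the highest fl/fl library at 4.16. Robo3, which lets commissural axons cross the midline and was named after its values were seen, had a log2 fold change of 0.48 (limma adjusted p = 0.599).

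The semaphorins as a family did not move to 1 side, since 7 of the 15 kept members were above 0 and the median log2 fold change was -0.09. Sema5a, a transmembrane semaphorin with thrombospondin repeats (chromosome 15, 32244813 to 32696341, plus strand), had the largest fold change among them. Its levels were 6.16, 5.80 and 5.25 log2 RPM in female del/del 1 to 3 and 5.68 in male del/del 5, against 5.35, 5.00 and 4.46 in female fl/fl 1 to 3, 5.25 in male fl/fl 5 and 4.82 in male fl/fl 7. Line 1 was high and line 3 low in both genotypes, so the groups overlapped although each del/del culture exceeded the fl/fl culture of its line. The difference was 0.75 on the log2 scale (SE 0.225, limma adjusted p = 0.189). In the fit blocked by line Sema5a rose (0.71, adjusted p = 0.0235), also with median centring added (adjusted p = 0.0375).

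Sema3d, a secreted class 3 semaphorin, was the 1 guidance gene whose del/del libraries all lay below the fl/fl libraries. The levels were 2.63, 2.41 and 2.38 log2 RPM in female del/del 1 to 3 and 2.47 in male del/del 5, against 2.84, 3.23 and 2.85 in female fl/fl 1 to 3, 2.83 in male fl/fl 5 and 2.72 in male fl/fl 7. The gap between the groups was small, and the difference did not pass (log2 fold change -0.44, SE 0.122, limma adjusted p = 0.147), nor did it within lines (blocked adjusted p = 0.102). Sema6d, the semaphorin with the highest level per length, had a log2 fold change of -0.10 (SE 0.160, limma adjusted p = 0.997). Sema3e and Sema3c, named after their values were seen, varied most between lines. Sema3e was at 3.14, 2.02 and 0.91 log2 RPM in female del/del 1 to 3 and 2.43 in male del/del 5, against 2.29, 1.80 and 1.86 in female fl/fl 1 to 3, 2.34 in male fl/fl 5 and 1.23 in male fl/fl 7. Its SD within a genotype, 0.698, was the largest of the kept members, and del/del was higher than fl/fl in lines 1, 2 and 5 and lower in line 3.

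The plexins and neuropilins, which receive semaphorin signals, had 0 rises and 0 falls among 11 kept genes by limma and by voom. At an unadjusted p under 0.05, 1 was higher and 0 lower by limma, and the median log2 fold change was 0.06. The 1 was Plxnd1, a receptor of Sema3e, at 5.15 ± 0.0767 log2 RPM in del/del (SD, n = 4) and 4.78 ± 0.312 in fl/fl libraries (SD, n = 5), with a log2 fold change of 0.38 (limma adjusted p = 0.418). Plxnc1, a receptor of Sema7a, had a log2 fold change of -0.20 (SE 0.094, limma adjusted p = 0.533). Plxnb2 was at 7.00 ± 0.240 log2 RPM in del/del and 6.98 ± 0.263 in fl/fl, and its log2 fold change was -0.02 (SE 0.175). For each of these 3 plexins the genotypes overlapped.

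The netrins and their receptors also lacked a call. Of the 3 kept netrins, 0 rose and 0 fell by limma and by voom, with 0 at an unadjusted p under 0.05. Ntn1, the founding attractant of commissural axons, had a log2 fold change of 0.07 (SE 0.132) and Ntn3 one of 0.08 (SE 0.167). Ntn3 overlaps Tbc1d24 and BC028777, and its sign turned in 4 alternatives. Among the 5 receptors, 0 rose and 0 fell by limma and by voom, and 1 was at an unadjusted p under 0.05. That gene was Unc5d, a receptor of netrins and of Flrt proteins. Its levels were 0.71, 1.14 and 1.07 log2 RPM in female del/del 1 to 3 and 0.98 in male del/del 5, against 0.52, -0.20 and 0.31 in female fl/fl 1 to 3, -0.41 in male fl/fl 5 and 0.17 in male fl/fl 7. The groups did not overlap, and line 1 had the smallest difference, 0.19. The difference was 0.87 on the log2 scale (SE 0.244, limma adjusted p = 0.153, blocked by line 0.0775), at 121 to 232 reads per del/del library and 21 to 167 reads per fl/fl library. Unc5c had a log2 fold change of 0.21 (SE 0.128, limma adjusted p = 0.770) and Unc5b one of 0.02 (SE 0.118).

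**Figure D4:**
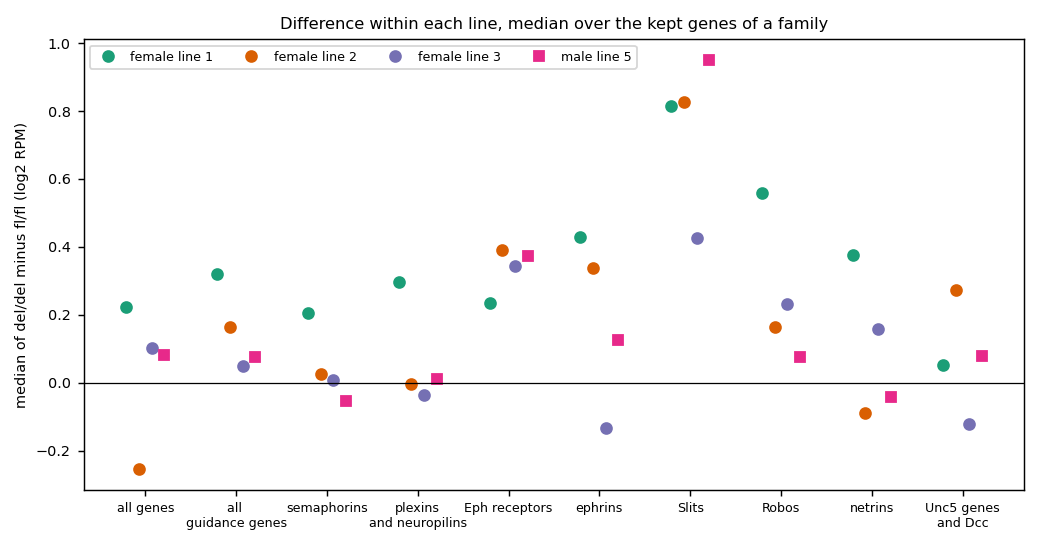
Median over the kept genes of a family of del/del minus fl/fl in log2 RPM, for female lines 1 to 3 (circles) and male line 5 (squares), with all kept genes and all guidance genes on the left. Eph receptors lie at 0.23 to 0.39 and the 2 kept Slits at 0.43 to 0.95, and all genes spread from -0.25 in line 2 to 0.22 in line 1.

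In females alone (3 del/del against 3 fl/fl libraries) 0 guidance genes rose and 0 fell by limma, where 0.0142% of all genes rose and 0.0% fell. The deleted gene Smchd1 did not pass in females either (log2 fold change -1.24, limma adjusted p = 0.0921), so an absent call says little here. At an unadjusted p under 0.05, 11 members were higher and 1 was lower, where 5.9% of all genes were higher and 0.627% lower. With the line as a block 4 members rose in females, where 1.95% of all genes rose and 0.0926% fell: Epha7 (log2 fold change 0.83, adjusted p = 0.0131), Ephb6 (0.96, adjusted p = 0.0129), Slit1 (1.08, adjusted p = 0.00262) and Efna5 (1.17, adjusted p = 0.0344). In males (1 del/del against 2 fl/fl libraries) 0 rose and 0 fell by limma, where 0.0% of all genes were called, and 4 members were higher and 1 lower at an unadjusted p under 0.05, where 2.04% of all genes were higher and 0.598% lower. The spread of the single male del/del library was taken from the other groups. The log2 fold change in males was 1.12 for Epha7 (adjusted p = 0.548), 1.24 for Efna5 and 1.00 for Slit1 (adjusted p = 1.0 for both). The difference between the sexes passed for 0 members by limma, with 0 members at an unadjusted p under 0.05, where 6 of all genes (0.0427%) were. No voom test was run for females, for males or for their difference.

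Co-receptors and binding partners of the guidance system gave 1 call. Of 22 listed genes 21 were found by symbol and 20 kept. By limma 1 rose (5.0%) and 0 fell, where 1.45% of all genes rose and 0.0997% fell. Of the 20, 13 (65.0%) were above 0, against 48.9% of all genes, and the median log2 fold change was 0.13. Without female fl/fl 2, 15 (75.0%) were above 0, against 73.7% of all genes. The gene that rose was Met, the receptor tyrosine kinase for hepatocyte growth factor, which can form a complex with plexin-B1. Met was at 5.30, 5.26 and 5.13 log2 RPM in female del/del 1 to 3 and 5.39 in male del/del 5, against 4.12, 3.85 and 3.70 in female fl/fl 1 to 3, 3.19 in male fl/fl 5 and 4.01 in male fl/fl 7. All del/del libraries exceeded all fl/fl libraries, and Met rose 2.78-fold, by 1.47 on the log2 scale with an SE of 0.177 (limma adjusted p = 0.00751). Without male del/del 5 the call was lost (1.34, adjusted p = 0.0914). Flrt2, a ligand of Unc5 receptors, was at 0.42 (limma adjusted p = 0.139), Rgma, a repulsive ligand of neogenin, at 0.30 (adjusted p = 0.518) and Lrrc4c, a netrin-G ligand, at -0.29 (adjusted p = 0.495), all as log2 fold changes.

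Of the 47 listed signalling effectors 46 were kept. By limma 1 rose (2.17%) and 0 fell, near the shares of all genes, of which 1.45% rose and 0.0997% fell. Of the 46, 20 (43.5%) were above 0, against 48.9% of all genes, and the median log2 fold change was -0.05. Without female fl/fl 2, 35 of the 46 (76.1%) were above 0 and the median was 0.07. In that setting 73.7% of all genes were above 0, with a median of 0.0832. Srgap1, a signalling protein that acts downstream of Slit and Robo, was at 5.51 ± 0.0683 log2 RPM in del/del (SD, n = 4) and 5.02 ± 0.116 in fl/fl libraries (SD, n = 5). It rose 1.41-fold, by 0.49 on the log2 scale with an SE of 0.101 (limma adjusted p = 0.0460, higher in 4 of 4 lines), close to the threshold, and missed it with the line as a block (adjusted p = 0.0550) and by voom (adjusted p = 0.0759). Srgap3, of the same family, had a log2 fold change of 0.37 (limma adjusted p = 0.327), Ablim1, an actin-binding LIM protein, was at 0.48 (adjusted p = 0.0583), and Dpysl5, a collapsin response mediator protein, was at -0.57 (adjusted p = 0.0903).

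Markers of other brain cells were measured beside these changes. Of 7 astrocyte markers 7 were kept and 3 rose (Gfap, Aqp4 and Slc1a2, 42.9%), against 1.45% of all genes. The summed level of the 7 was 160 to 204 RPM in del/del and 117 to 170 RPM in fl/fl libraries. The 170 RPM belonged to female fl/fl 2, and the other fl/fl libraries reached 144 RPM at most, below all del/del libraries. Of 12 neuron markers 11 were found, 9 kept and 2 rose (Nefm and Nefl, 22.2% of the kept), against 1.45% of all genes. The Nefm row contains the whole Nefl row, so reads of Nefl count in both and the 2 rises are not independent. The summed level, which counts these reads 2 times, was 133 to 164 RPM in del/del and 81.8 to 95.6 RPM in fl/fl libraries, so that the groups did not overlap. Over the 9 kept neuron markers the median log2 fold change was 0.01, with 5 above 0 and 4 below, the lowest at -0.50. With the line as a block Gad1 also rose (log2 fold change 0.66, limma adjusted p = 0.0348). The other 9 found neuron markers, without Nefm and Nefl, summed to 80.8 to 90.2 RPM in del/del and 61.7 to 77.3 RPM in fl/fl libraries. Oligodendrocyte lineage markers summed to 141 to 150 RPM in del/del and 113 to 184 RPM in fl/fl, with 5 of 8 kept and 0 rising by limma or by voom and 0 at an unadjusted p under 0.05. Microglia and leukocyte markers summed to 112 to 125 RPM in del/del and 97.7 to 132 RPM in fl/fl, with 4 of 7 kept and 0 rising by limma. Most of this sum is the row of Cx3cr1, at 6.38 to 6.85 log2 RPM. That row spans 166.7 kb and overlaps those of Wdr48, Gorasp1, Ttc21a, Csrnp1 and Xirp1, and the P2ry12 row overlaps that of Med12l. The sum therefore cannot be read as RNA of these cells alone. Fibroblast and mesenchymal markers summed to 134 to 164 RPM in del/del and 81.9 to 122 RPM in fl/fl, with Lum at 3 reads or fewer in every library. Of the 7, 2 were kept, Fn1 and Acta2, and 0 rose by limma (adjusted p = 0.126 and 0.803). These 2 carried most of the sum, with Fn1 at 5.77 to 6.73 log2 RPM and Acta2 at 4.60 to 5.72. Endothelial markers summed to 4.61 to 8.75 RPM in del/del and 2.94 to 5.59 RPM in fl/fl, with 2 of 7 kept and 0 rising by limma. With the line as a block Flt1 rose (log2 fold change 2.00, limma adjusted p = 0.00995), at 14 to 291 reads per library. Neurons and astrocytes express guidance genes, and the part of these cells in the results was not tested. In bulk RNA, more cells of a type and more RNA per cell cannot be told apart.

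**Figure D5:**
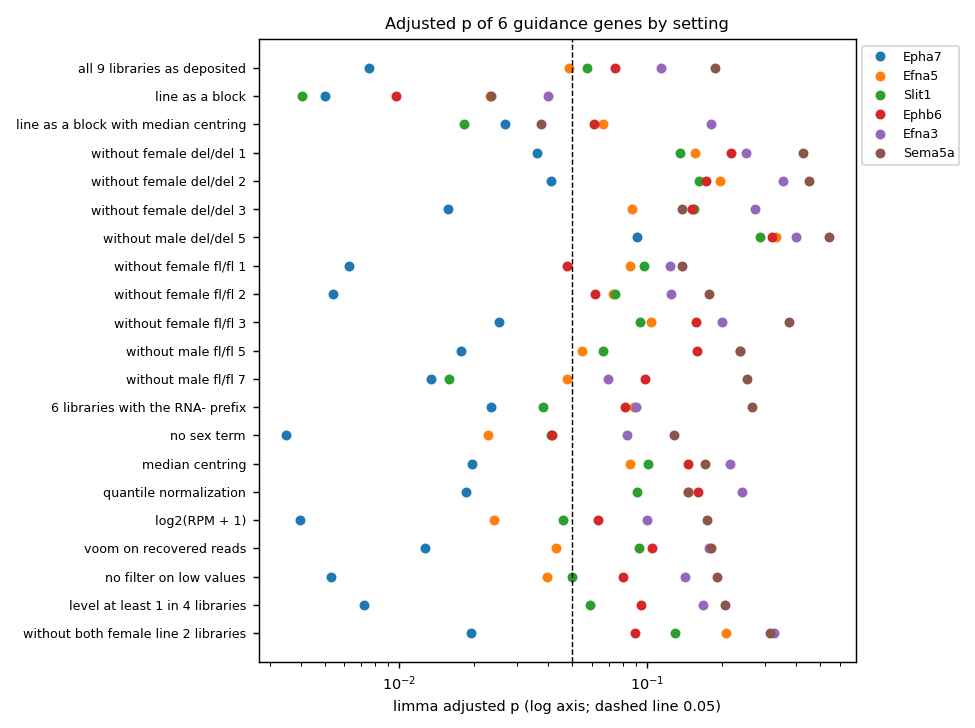
Limma adjusted p (log axis) of the 6 guidance genes that rose with the line as a block, in the comparison over both sexes and in each alternative (20 for each gene but Efna5, which the stricter filter leaves out and which has 19), with the threshold of 0.05 as a dashed line. Epha7 lies left of the line in all but the setting without male del/del 5 (0.0914), and Slit1 and Efna5 lie on either side of it.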

How the data were processed

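Per the submitters' processing notes, the tools were bcl2fastq, TopHat2 2.0.12 and edgeR 3.8.2, with the genome build mm10. How reads were counted, with which annotation and strand setting, is not given in the sources used here. Each gene of the deposited table has a log2 RPM value per library, as made by the authors, and the values were checked: at least 99.9961% are whole reads (tolerance 0.05) times 1 constant per library, 0 reads being entered as 0.9. These constants give 24.1 M to 116.6 M reads per library, 34.8% to 53.3% of them in listed genes. Rows count whole gene spans, introns included: in 100% of 12078 pairs of nested rows and libraries the outer row held at least as many reads. They can overlap (19 of 69 members do), and reads cannot be assigned to a strand or to 1 of the overlapping genes. All 69 were matched to GENCODE M21.

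A gene was kept where 3 or more libraries had a log2 level of 0 or higher. Del/del and fl/fl were compared in R 4.3.3 with limma 3.58.1 (two-sided moderated test with an intensity trend, sex as covariate, 6 residual degrees of freedom), with Benjamini-Hochberg adjustment over all 14044 kept genes and a threshold of 0.05. Effects by sex came from a model of 4 group means (5 degrees of freedom). The block used the 4 lines with both cultures (3 degrees of freedom), and males had no such fit. The protocol in the labels divides each line, so line numbers pair the libraries. As a check, deviations from the group mean in females correlated at r = 0.582 to 0.868 across genes within a line and at -0.841 to 0.728 between lines. Female del/del 2 correlated more with female fl/fl 3 (0.728) than with female fl/fl 2 (0.582), so the check does not settle the pairing of line 2. Nothing says that lines came from separate embryos, so the spread measured is that of these lines. The main fit treats the 9 libraries as independent and does not use the pairing by line. Only the block measures the spread of differences within lines. Intervals from counting were not used. Voom used TMM factors computed from the recovered reads, and no negative binomial test was run. The alternatives were the block, leaving out each library, the 6 libraries whose names start with RNA-, no sex term, median centring, quantile normalization, log2(RPM + 1), voom and other filters. Only the main fit over both sexes was run on simulated data, and the block, the model of 4 group means and voom were not.

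Members and gene lists were chosen with earlier results of these data known. Named are the members that passed with or without the block, per family the 2 with the smallest p and the one with the highest level per length, and in the other lists those that passed and the 4 with the smallest p. Draxin and Map2 were not matched by symbol.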

Additional observations from a re-analysis of the deposited data

Results flagged for a closer look

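Dixon's test was applied to the named genes in each genotype, 58 tests in all, of which chance alone flags about 1 in 20; it marked 8 single libraries. Values are log2 RPM. Among del/del libraries, Ephb6 in female del/del 1 was at 2.91 with the others at 2.33 to 2.40, Robo2 in female del/del 1 was at 4.66 with the others at 4.17 to 4.23, and Unc5b in female del/del 3 was at 4.66 with the others at 4.53 to 4.55. Among fl/fl libraries, Robo1 in male fl/fl 7 was at 5.28 with the others at 5.04 to 5.09. The other 4 were all in female fl/fl 2, the shallowest library: Sema3d at 3.23 with the others at 2.72 to 2.85, Sema6d at 7.22 with the others at 6.59 to 6.73, Ablim1 at 3.36 with the others at 3.57 to 3.64, and Dpysl5 at 4.02 with the others at 4.30 to 4.40. The part of depth in these values was not tested.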

How the results depend on the processing

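The count of guidance genes that rose over both sexes was 2, and it was 6 with the line as a block, 4 without a sex term, and 1 with median centring, with quantile normalization, with a level of at least 1 in 4 libraries, and without both female line 2 libraries (chosen after seeing the data). Leaving out 1 library gave 0 to 3: 0 without male del/del 5, 3 without male fl/fl 7, 2 without female fl/fl 1 and 1 without any other. The share of all genes called was counted for the block and for voom, and not for the other alternatives. Whether these counts follow the calls over all genes was not tested. The count of falls was 0 in each alternative. In females the block gave 4 rises in place of 0. Co-receptors that rose numbered 1, and 0 to 2 with 1 library left out. Effectors that rose numbered 1, and 2 without a sex term, 0 to 1 with 1 library left out, and 0 with the block, the block with median centring, the RNA- libraries alone, median centring, quantile normalization, voom, no filter, the stricter filter, and without both line 2 libraries. Effectors that fell numbered 0, and 0 to 1 with 1 library left out. The median log2 fold change of each family moved by less than the spread between replicates in each alternative, but 3 medians near 0 changed sign. That of the semaphorins (-0.0867) was -0.1666 to 0.0662 with 1 library left out, above 0 without female del/del 3 and without fl/fl 1, 2 or 5, and 0.0226 without both line 2 libraries. That of the plexins and neuropilins (0.0602) was -0.0388 without female del/del 1 and -0.0094 in the RNA- libraries. That of the Unc5 genes and Dcc (0.0208) was -0.0582 to 0.1276 with 1 library left out, below 0 without female del/del 3 and without female fl/fl 2, -0.0029 without a sex term, -0.0598 by voom, -0.0074 with the stricter filter and -0.055 without line 2. The median over all members was 0.0112 to 0.1912 with 1 library left out. The cause of these moves was not tested.

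Among named genes 4 near 0 turned sign. Ntn3 (0.08) was at -0.0439 with quantile normalization, -0.0452 by voom, -0.0768 without line 2, and -0.0725 to 0.23 with 1 library left out. Plxnb2 (-0.02) was at 0.0243 with the block, 0.0103 without a sex term, 0.0351 with quantile normalization, 0.14 without line 2, and -0.12 to 0.0941 with 1 library left out. Sema6d (-0.10) was at 0.0668 without line 2 and -0.17 to 0.0261 with 1 library left out. Unc5b (0.02) was at -0.0029 without a sex term, -0.0598 by voom, -0.0550 without line 2, and -0.0582 to 0.13 with 1 library left out. The blocked fit changed the calls of Slit1, Ephb6, Sema5a, Efna3 and Srgap1, of the markers Gad1 and Flt1, and no other call of a named gene over both sexes. With 9 libraries and few reads for Efna5 and Unc5d, differences of low genes have wide errors.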
